A study of Mus musculus with 6 samples.

Results

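Accessible chromatin was examined at the genes for interleukin 10 and its neighbours and at the genes for the regulators c-Maf and Blimp-1 in 3 T helper subsets. The members were Il10, Il19, Il20 and Il24, which lie together on chromosome 1, Maf on chromosome 8 and Prdm1 on chromosome 10. All ATAC-seq peaks were taken in a window of 222901 bp from Il24 to Il10 with 40 kb on either side, in 224853 bp around Maf and in 291325 bp around Prdm1, the last 2 with flanks of 100 kb (mm10). Overlapping or abutting peaks of the 6 lists were merged into regions, giving 34 regions in the Il10 cluster, 21 around Maf and 30 around Prdm1, or 85 of 236017 in the genome. A library was said to call a region when one of its peaks overlapped it by at least 1 bp.

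ATAC-seq marks open DNA by the cuts of the transposase Tn5. Naive CD4+ T cells from the spleen of wild-type C57BL6/J mice were activated through CD3 and CD28 and cultured towards Th9, Th2 or Th17 cells. The study's methods also name lymph nodes as a source and mice of both sexes. The study's methods give the same day of culture for the collection of all ATAC-seq cultures. There were 2 libraries per subset, labelled replicate 1 and replicate 3. Per the study's methods, Th2 cultures received IL-4 and IL-2 with an antibody to IFN-γ. Th9 cultures received the same with TGF-β added. Th17 cultures received IL-6, TGF-β, IL-23 and IL-1β, with antibodies to IFN-γ, IL-4 and IL-2. Such cultures hold cells that make the subset's cytokine and cells that do not, so fewer open cells and less open chromatin per cell cannot be told apart. The sources used here do not say whether the libraries of a subset came from separate animals.

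IL-10 is the cytokine by which T helper cells restrain inflammation, and many effector subsets can make it. IL-19, IL-20 and IL-24 belong to the same family but act mainly on epithelial cells through receptors of the IL-20 type. In T cells c-Maf, a bZIP factor, and Blimp-1, a zinc finger repressor encoded by Prdm1, are both known to drive Il10 expression. Blimp-1 also marks plasma cells and terminally differentiated effector cells.

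The lists held between 100317 and 142213 peaks, and their lowest fold enrichment ranged from 1.71 to 2.11. The lists hold no read counts, so no counting interval could be given, and a region without a peak is one that was not called at the depth of that library. Each fold enrichment was turned into a percentile within its own list, where 100 is the strongest peak. Promoter peaks of T cell and subset genes were read to check the labels. Of 5 T cell markers, Cd3e, Cd3g, Lck and Cd28 were called in all 6 libraries. Cd4 had no promoter peak in Th9 replicate 1 or Th17 replicate 1, although the cells were isolated as CD4+. In the other 4 libraries Cd4 stood at percentiles 19.2 to 55.9. Il17f was called in the Th17 libraries only, while Il17a was called in both Th17 libraries and, at percentile 36.1, in Th2 replicate 3. Il4 was called in the 4 Th9 and Th2 libraries alone, and Il13 in both Th2 libraries only, while Il5 was called in all 6. The Il9 promoter reached percentiles 88.6 and 90.7 in Th9 and 37.1 and 44.4 in Th2, and neither Th17 library called it. From a genome browser view, the study describes the Il9 promoter peak as absent in Th2 as well as Th17 cells. Of 10 markers of B, CD8 T, NK and myeloid cells, 7 had no promoter peak in any library, among them Ms4a1, Cd79a, Cd8a, Ncr1 and Lyz2. Cd8b1 was called in all 6 libraries and Klrb1c in Th2 replicate 1. Adgre1, a macrophage marker, was called in the 4 Th9 and Th2 libraries at percentiles 8.96 to 47.8 and not in Th17. It moved with the Th9 and Th2 pattern described next, and its part in that pattern was not tested.

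The sequences shown come from the strongest region of each window that all 4 Th9 and Th2 libraries and neither Th17 library called. Region sequences are centred on the longest run of bases under a peak in the most libraries, which need not be the region's middle. A neighbouring Maf region that all 6 libraries called, with the widest spread between subset means in that window, is given for contrast. All are 300 bases of the plus strand of GRCm38.p6. The Il24 to Il20 element is chr1:130894632-130894931. The Maf element is chr8:115739879-115740178 and its neighbour chr8:115742650-115742949. The distal Prdm1 element is chr10:44609238-44609537. The 250 bases before the RefSeq start of Prdm1, chr10:44458749-44458998 on the minus strand of GRCm38.p6, are shown because every library called this promoter. Capitals mark matches on either strand to 5 motifs. AP-1 factors, the FOS and JUN dimers, were searched as TGANTCA. The MAF motif with its flank was searched as TGCTGAC. For STAT factors, which relay cytokine signals, the letters were TTCNNNGAA. For GATA factors the letters were AGATAA. The PRDM1 and IRF motif was GAAAGTGA, and the frequent NFAT letters are not capitalised.
Il24 to Il20 element: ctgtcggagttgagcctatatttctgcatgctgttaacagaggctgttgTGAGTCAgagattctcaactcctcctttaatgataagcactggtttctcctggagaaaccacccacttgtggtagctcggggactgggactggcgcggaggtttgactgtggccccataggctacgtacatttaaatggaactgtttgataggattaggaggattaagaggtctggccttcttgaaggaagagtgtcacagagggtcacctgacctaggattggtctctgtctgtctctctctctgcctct
Maf element: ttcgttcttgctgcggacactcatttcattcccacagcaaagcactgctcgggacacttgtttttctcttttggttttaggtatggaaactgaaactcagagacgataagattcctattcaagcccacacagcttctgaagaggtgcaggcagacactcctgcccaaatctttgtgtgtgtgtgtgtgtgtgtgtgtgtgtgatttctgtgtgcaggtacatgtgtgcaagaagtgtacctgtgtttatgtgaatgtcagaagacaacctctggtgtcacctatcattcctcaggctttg
Maf neighbour: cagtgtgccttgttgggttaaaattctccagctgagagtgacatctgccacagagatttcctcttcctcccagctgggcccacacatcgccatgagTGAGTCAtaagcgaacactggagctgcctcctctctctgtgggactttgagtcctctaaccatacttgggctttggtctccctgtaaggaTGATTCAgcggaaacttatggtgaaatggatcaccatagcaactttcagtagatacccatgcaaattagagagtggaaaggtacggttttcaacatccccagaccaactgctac
Distal Prdm1 element: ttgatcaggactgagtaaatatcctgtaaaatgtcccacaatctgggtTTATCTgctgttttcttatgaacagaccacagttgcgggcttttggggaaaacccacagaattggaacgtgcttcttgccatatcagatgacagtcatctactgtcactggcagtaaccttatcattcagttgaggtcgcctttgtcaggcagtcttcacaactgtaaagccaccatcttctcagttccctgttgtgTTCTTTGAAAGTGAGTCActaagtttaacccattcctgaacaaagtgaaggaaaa
Prdm1 promoter: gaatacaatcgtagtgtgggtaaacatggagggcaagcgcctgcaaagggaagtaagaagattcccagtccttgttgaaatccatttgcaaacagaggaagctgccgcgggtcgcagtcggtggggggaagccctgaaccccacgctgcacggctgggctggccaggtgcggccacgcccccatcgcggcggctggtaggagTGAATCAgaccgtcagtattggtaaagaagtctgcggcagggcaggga
The Il24 to Il20 element held 1 AP-1 match, the Maf element held no match and its neighbour held 2 AP-1 matches. In the distal Prdm1 element a STAT, a PRDM1 and IRF and an AP-1 match overlapped in a single run of capitals, with a GATA match apart from them. Of the 6 member genes, 3 were in the RefSeq promoter table used here (Il19, Il20 and Prdm1). The Prdm1 promoter held an AP-1 match, which 6.75% of 32851 RefSeq promoters held.

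Regions were read over 300 bases centred in the same way. Of the 85 member regions, 23 held an AP-1 match (27.1%), against 12.8% of 236006 regions of the genome. The counts were 10 of 34 in the Il10 cluster, 5 of 21 around Maf and 8 of 30 around Prdm1. A MAF match was held by 6 member regions (7.06% against 6.74%), a STAT match by 11 (12.9% against 8.37%), a GATA match by 11 (12.9% against 11.3%) and a PRDM1 and IRF match by 3 (3.53% against 1.54%). The NFAT letters GGAAA were in 49 (57.6% against 53.2%). AP-1, STAT and GATA matches were each held by 3 of the 11 member regions called in all Th9 and Th2 and no Th17 libraries. Over the genome, regions of that class held them in 24.7%, 19.6% and 22.2%. The other counts were 1 of 11 for PRDM1 and IRF (genome 2.68%), 0 for MAF (6.04%) and 7 for NFAT (61.8%). Of the 29 member regions called in all 6 libraries, 10 held an AP-1 match, against 13.03% of such regions over the genome. A match describes letters and not a bound factor.

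At the Il10 gene itself (chr1:131019845-131024974, plus strand) the promoter was called in Th9 and Th2 cells and not in Th17 cells. A promoter here is the window from 1000 bp before to 100 bp after any transcript start in the basic annotation. The Il10 promoter peak stood at percentiles 48.5 and 44.6 in Th9 replicates 1 and 3 and at 41.0 and 49.3 in the Th2 replicates. Neither Th17 library had a peak there. This pattern was found for 0.847% of 21951 protein-coding genes. The peak was weak, with folds between 2.11 and 2.49, and why neither Th17 library called it was not tested. With only peaks of −log10 q of at least 5 kept, 1 library called it, and none did with a fold of at least 4. It was called in 2 libraries where the overlap had to reach 200 bp.

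The Il24 promoter (gene chr1:130882074-130887454, minus strand) went the other way. All 6 libraries called it, as they did for 58.7% of protein-coding genes. Its percentiles were 76.4 and 71.6 in Th9, 72.8 and 62.0 in Th2, against 86.3 and 79.2 in Th17, so both Th17 libraries stood above the other 4. With a fold of at least 4, only 1 library still called it.

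Il20 (chr1:130906985-130911451, minus strand) had no promoter peak in any library, which held for 28.0% of protein-coding genes. A region inside the gene, 0.832 kb after the start, was called in all 6 libraries at percentiles 53.5 to 78.4, and with promoters of 2000 bp on either side all 6 counted as calling Il20. Il19 (chr1:130932656-130940115, minus strand) had a promoter peak in Th2 replicate 3 alone, at percentile 3.23, near the bottom of that list.

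**Figure D1:**
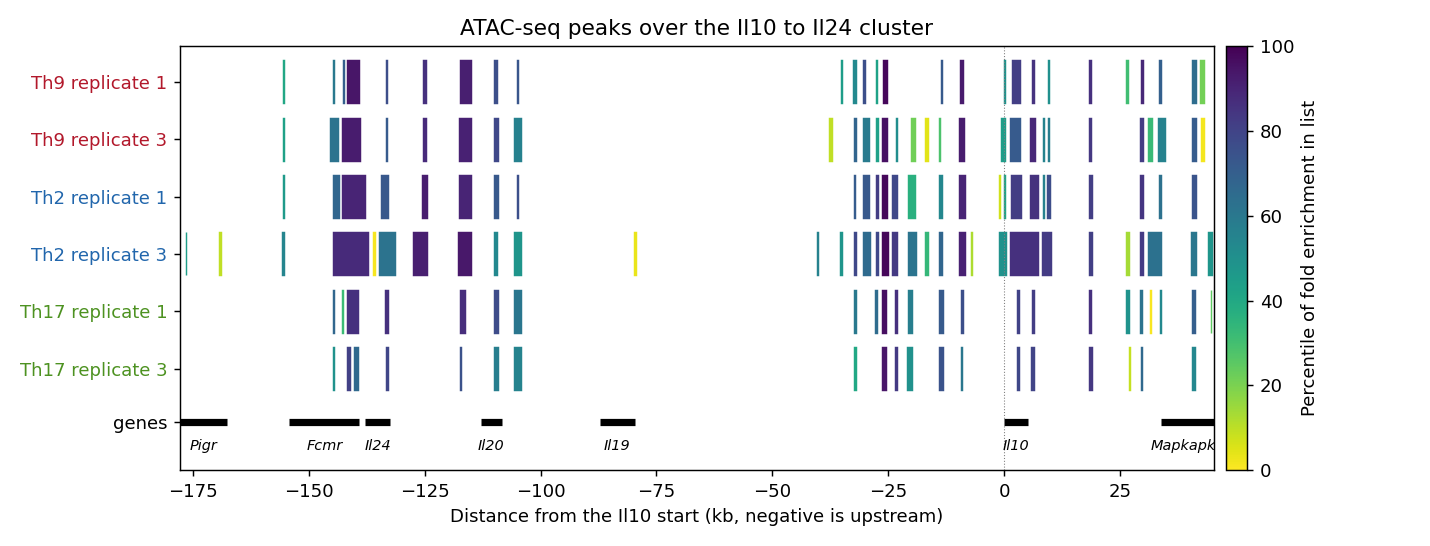
Peaks over the Il10 cluster in each library (rows, Th9 red, Th2 blue and Th17 green labels) against the distance from the Il10 start in kb (horizontal axis), with box colour giving the percentile of the fold enrichment within the list and black bars giving protein-coding genes. The stretch over Il19 holds a single peak, in Th2 replicate 3, while dense groups of peaks lie around Il24 and Il20 and on either side of Il10.

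The Il10 cluster had 13 of 34 regions called in all 6 libraries (38.2%), Maf 6 of 21 (28.6%) and Prdm1 10 of 30 (33.3%), against 21.4% of all regions. Regions of a single library made up 17 of the 85, against 37.2% of all regions. Regions called in all 4 Th9 and Th2 libraries but not in the Th17 libraries numbered 5 in the Il10 cluster (14.7%), 1 around Maf (4.76%) and 5 around Prdm1 (16.7%), against 2.0% of all regions. The Th17 lists held 127073 and 100317 peaks and the other 4 between 101102 and 142213, and with all lists at 100317 peaks the counts were 5, 1 and 6. The share over all regions was not computed at that length, so those counts have no genome value beside them. Regions that 1 subset alone called, in both of its libraries, numbered 1, 2 and 4, or 7 of 85 (8.24%) against 5.88%. With 2 libraries per subset no test of a single region could pass 0.05, since the smallest possible p of an exact permutation test of 2 against 4 libraries is 0.0667.

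Between Il24 and Il20 lay the strongest region of the cluster that no Th17 library called. The region chr1:130892404-130895406, 4.95 kb before the Il24 start and intergenic, stood at percentiles 86.2 and 88.0 in Th9 and at 91.8 in both Th2 libraries. Its folds there were 4.54, 5.64, 5.56 and 6.74, and no Th17 peak touched it. Peaks covered 690 and 762 bp of it in Th9, 904 bp in Th2 replicate 1 and 3003 bp in Th2 replicate 3.

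The next region along, chr1:130902110-130904951, 6.5 kb beyond the Il20 start and outside any gene, was called in all 6 libraries. Its percentiles were 91.6 and 91.0 in Th9, 90.1 and 93.7 in Th2, against 87.1 and 74.9 in Th17. Peaks covered 2476 and 2714 bp in Th9 and 2551 and 2842 bp in Th2, but 979 and 284 bp in the Th17 libraries. The Th17 libraries were thus the 2 lowest in both rank and width.

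A broad region at the ends of Fcmr, which encodes the Fc receptor for IgM, and Il24 (chr1:130874535-130882747) was also called throughout. The percentiles were 94.5 and 92.2 in Th9 and 86.3 and 80.6 in Th17. Those of Th2 lay between, with 87.9 in replicate 3 as the lower. Since Fcmr and Il24 exons both lie under it, the region cannot be given to Il24 alone. Downstream of Il24, chr1:130864188-130864546 was a small region of the Th9 and Th2 libraries only, at percentiles 40.4, 42.6, 46.0 and 54.3.

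Upstream of Il10 the strongest region of the cluster was shared by every subset. It lay 25.1 kb before the Il10 start (chr1:130993543-130994706) and stood at percentiles 98.2 and 95.8 in Th9, 98.1 and 98.4 in Th2, against 96.3 and 94.4 in Th17. At 29.0 kb before the start, chr1:130989338-130990846 was called in Th9 (75.8 and 58.9) and Th2 (72.4 and 65.6) and in neither Th17 library. At 32.0 kb, chr1:130987163-130987891 was called in all 6 and had the widest spread of subset means in the cluster, with 53.0 and 67.8 in Th9, 71.1 and 78.3 in Th2, against 59.6 and 40.1 in Th17. Th9 and Th17 overlapped there, and both Th2 libraries lay above every Th9 and Th17 library.

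The region 8.38 kb before the Il10 start (chr1:131010053-131011465) separated the subsets without overlap. Its percentiles were 92.8 and 92.4 in Th9 and 90.2 and 90.9 in Th2, against 76.0 and 60.4 in Th17. Th17 peaks there spanned 273 and 276 bp, and those of the other libraries 714 to 1328 bp. The region 13.3 kb before the start (chr1:131005663-131006530) did not separate them, at 72.1 and 28.3 in Th9, 53.9 and 67.6 in Th2, against 72.1 and 74.2 in Th17.

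At 23.1 kb before the Il10 start, chr1:130995719-130996779 had no peak in Th9 replicate 1 and stood at percentile 51.0 in Th9 replicate 3, while Th2 gave 78.5 and 83.1 and Th17 gave 86.3 and 82.8. At 19.1 kb, chr1:130998965-131000763 also had no peak in Th9 replicate 1 and stood at 21.8 in Th9 replicate 3, while Th2 gave 36.7 and 61.5 and Th17 gave 57.6 and 49.7. Both regions lay outside the rule for named regions and were chosen after their values were seen.

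Past the Il10 start, chr1:131027928-131029858 was called in Th9 (50.1 and 57.7) and Th2 (76.6 and 82.8) and in no Th17 library. The region chr1:131049044-131049741 was called in all 6, at 89.0 and 82.1 in Th9, 84.6 and 82.5 in Th2, against 61.9 and 66.2 in Th17. A region in an intron of Mapkapk2, which encodes a kinase downstream of p38, was called in the Th9 libraries alone (chr1:131062128-131062991), at the low percentiles 21.3 and 1.58. The gene body of Il10 held a region called in all 6 libraries (chr1:131021074-131027043). Its percentiles were 85.3 and 88.8 in Th9, 85.9 and 86.2 in Th2, against 82.1 and 79.9 in Th17. Th17 peaks covered 870 and 949 bp of it, and those of the other libraries 2262 to 5970 bp.

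Maf (chr8:115682942-115707794, minus strand) had a promoter peak in all 6 libraries. It stood at percentiles 90.5 and 86.9 in Th9, 91.4 and 86.7 in Th2, against 93.8 and 93.3 in Th17. Both Th17 libraries lay above the other 4. Peaks at this promoter were broad and covered between 3302 and 4374 bp. With a fold of at least 4 the promoter was still called in every library.

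**Figure D2:**
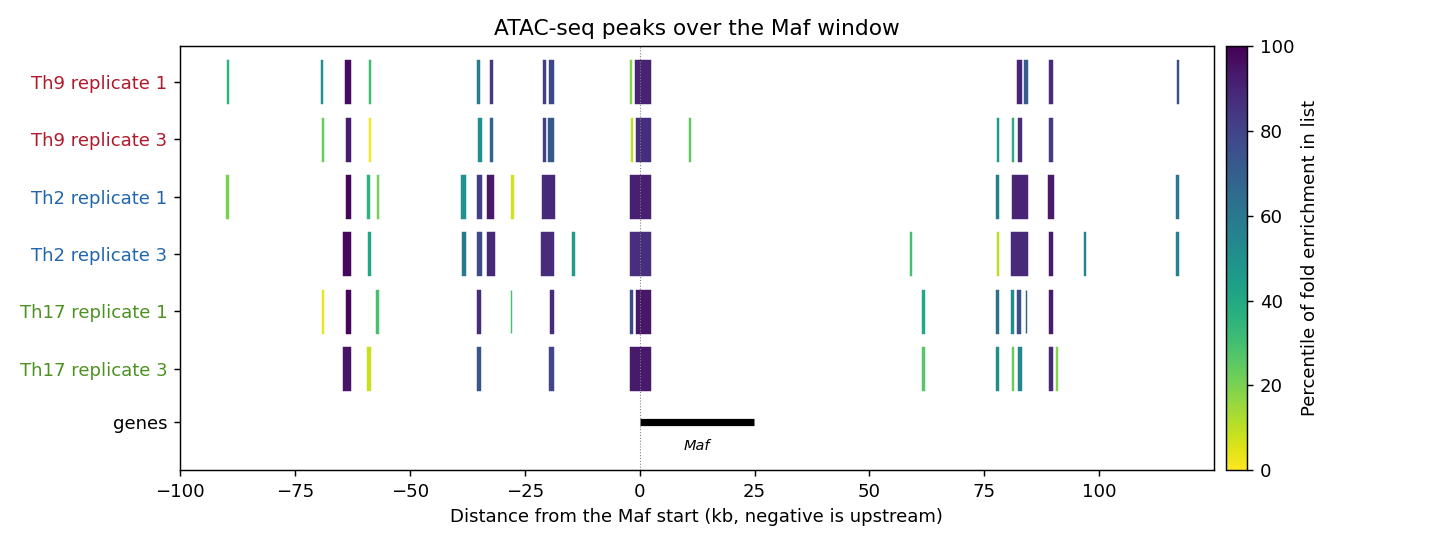
Peaks over the Maf window in each library (rows) against the distance from the Maf start in kb (horizontal axis, negative is upstream), coloured by the percentile of the fold enrichment within the list, with the gene as a black bar. All 6 libraries have the broad promoter peak, whose Th17 percentiles are 93.8 and 93.3, and the element 31.7 kb upstream is missing from both Th17 rows.

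Upstream of Maf, the strongest region of the window (63.0 kb, chr8:115770769-115772381) was called in all libraries at percentiles 91.8 to 98.8. The element 31.7 kb upstream (chr8:115739510-115740900) was called in Th9 at 82.8 and 68.3, in Th2 at 93.6 and 89.0, and in no Th17 library. Its folds were 3.99 and 2.97 in Th9 and 6.17 and 5.84 in Th2, and peaks covered 417 bp in either Th9 library against 1260 and 1391 bp in Th2.

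The neighbour at 34.4 kb (chr8:115742205-115743213) behaved otherwise. Th9 gave percentiles 58.4 and 50.2, Th2 gave 81.7 and 77.3, and Th17 gave 87.2 and 74.1. Both Th9 libraries were the lowest of the 6. A further upstream region, 37.9 kb away (chr8:115745662-115746590), was called in Th2 only, at 49.3 and 59.9.

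Beyond the 3′ side of Maf, chr8:115623495-115627060, 80.7 kb from the start, was the only region of this window, among those called in all 6 libraries, with both Th17 percentiles below the other 4. Its percentiles were 89.8 and 87.2 in Th9, 90.2 and 87.9 in Th2, against 75.9 and 54.9 in Th17. The region 88.9 kb from the start (chr8:115617968-115618852) stood at 88.0 and 82.7 in Th9, 92.9 and 93.0 in Th2, against 92.7 and 89.0 in Th17, with both Th9 libraries lowest. A small Th17-only region lay 61.5 kb from the start (chr8:115645972-115646336), at percentiles 40.1 and 26.2.

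A region 18.6 kb upstream (chr8:115726428-115729261) was called in all 6 at percentiles 79.1 to 88.6, and its peaks were wider in Th2 (2570 and 2700 bp) than in Th9 (1208 and 1229 bp) and Th17 (759 and 825 bp). One in an intron of 4930488N15Rik (chr8:115590725-115591052) was called in Th9 replicate 1 at 75.7 and in Th2 at 60.2 and 55.2. One 68.8 kb upstream (chr8:115776642-115777000) was called in Th9 at 48.6 and 23.6 and in Th17 replicate 1 at 3.16.

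Prdm1 (chr10:44437177-44528501, minus strand) had a promoter peak in all 6 libraries as well. Its percentiles were 95.6 and 92.6 in Th9, 96.8 and 87.8 in Th2, against 96.7 and 94.7 in Th17. The groups overlapped. The gene record extends upstream of the starts used here through a transcript outside the basic annotation, so regions 23.2 to 68.2 kb upstream of these starts lie within the record. A region just beyond that record (chr10:44529074-44530136) reached percentiles of 93.1 and 91.0 in Th9, 94.1 in Th2 replicate 1 and 95.9 and 95.3 in Th17, with both Th17 libraries highest and Th2 replicate 3 lowest.

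**Figure D3:**
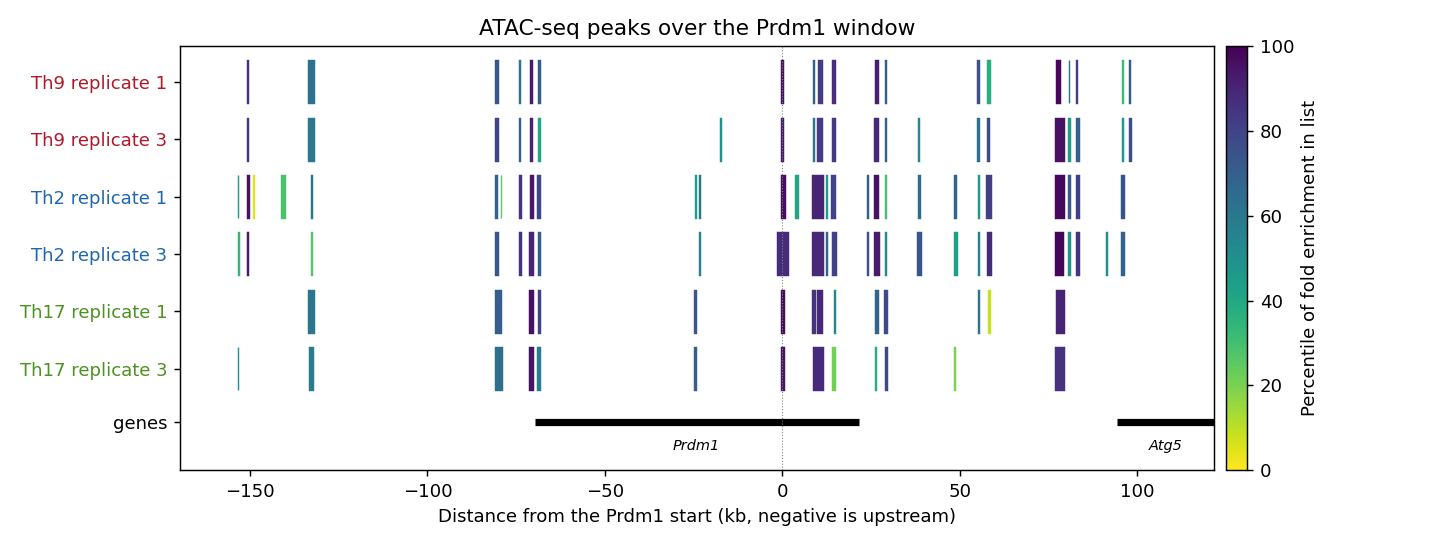
Peaks over the Prdm1 window in each library (rows) against the distance from the Prdm1 start in kb (horizontal axis, negative is upstream), coloured by the percentile of the fold enrichment within the list, with protein-coding genes as black bars. The promoter is called in all rows, and the element 150 kb upstream is present in the Th9 and Th2 rows, at percentiles 83.9 to 95.6, and absent from both Th17 rows.

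The strongest Prdm1 region called in all Th9 and Th2 libraries and no Th17 library lay 150 kb upstream in an intron of Gm35154 (chr10:44609075-44609584). It stood at percentiles 85.8 and 83.9 in Th9 and 95.6 and 93.1 in Th2, with folds of 4.47, 4.54, 7.09 and 7.31. This is the element whose printed sequence holds the overlapping STAT, PRDM1 and IRF and AP-1 matches. A second such region lay 73.7 kb upstream (chr10:44532423-44532981), at 63.1 and 69.3 in Th9 and 85.7 and 85.2 in Th2. In both, the Th2 libraries stood above the Th9 libraries.

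The other 3 lay beyond the 3′ end of Prdm1. The region 82.7 kb from the start (chr10:44375101-44376081) stood at 81.5 and 69.2 in Th9 and 80.6 and 84.7 in Th2. At 80.6 kb (chr10:44377719-44378161) the values were 62.3 and 45.5 in Th9 and 72.5 and 48.8 in Th2. At 95.5 kb (chr10:44362522-44363232), over an exon of the autophagy gene Atg5, they were 31.3 and 46.7 in Th9 and 74.4 and 68.4 in Th2. Close by, an intronic Atg5 region (chr10:44360551-44360947) was called in Th9 only, at 71.9 and 75.9.

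Among regions called in all 6 libraries, the widest subset differences around Prdm1 were at 13.8 and 26.0 kb after the start. The first, in an intron (chr10:44443660-44444962), stood at 87.4 and 83.5 in Th9, 80.4 and 80.5 in Th2, against 54.3 and 21.6 in Th17. The second (chr10:44431560-44432796) stood at 91.8 and 88.9 in Th9, 95.6 and 92.8 in Th2, against 68.3 and 37.6 in Th17. In each, every Th9 and Th2 library was above both Th17 libraries.

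The strongest distal region beyond the 3′ end of the gene (76.9 kb, chr10:44379354-44381859) was called in all 6, at 98.1 and 95.4 in Th9, 97.8 and 98.5 in Th2, against 89.9 and 85.8 in Th17. The region 28.8 kb from the start (chr10:44429316-44429925) was ordered the other way, with 78.4 and 78.1 in Th17, 70.2 and 68.7 in Th9, and 30.0 and 52.1 in Th2. The 2 Th17 libraries were the highest there.

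Some Prdm1 regions were called in Th2 cells only. They lay 23.8 kb (chr10:44434663-44434963) and 12.3 kb (chr10:44446090-44446436) after the start and 23.2 kb before it (chr10:44481991-44482308), with percentiles between 44.4 and 74.3. Immediately beside the last of them, chr10:44483040-44483559 was called in both Th17 libraries (73.9 and 70.3) and in Th2 replicate 1 (43.9), and in no Th9 library.

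Further Prdm1 regions were called in Th2 and in part of the other subsets. The regions chr10:44409613-44410337 and chr10:44611859-44612214 were called in both Th2 libraries and in Th17 replicate 3, and chr10:44419740-44420649 in both Th2 libraries and in Th9 replicate 3. Their percentiles ranged from 19.6 to 73.2. Regions called in all 6 at 68.2 kb (chr10:44526928-44527905) and 132 kb upstream (chr10:44590755-44592333) overlapped between subsets, with percentiles of 40.5 to 80.3 and 26.9 to 63.3.

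Over the 29 member regions called in all 6 libraries, both Th17 percentiles were below the other 4 in 9 (31.0%), against 10.8% of all regions called in all 6. The split was 5 of 13 in the Il10 cluster, 1 of 6 around Maf and 3 of 10 around Prdm1. Both Th17 percentiles were above the other 4 in 4 of the 29 (13.8%), against 7.71%, and these were the Il24 and Maf promoters and the Prdm1 regions 28.8 kb after and 70.3 kb before the start.

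Between Th2 and Th9, which differ in the culture by TGF-β, regions called in all 4 libraries were compared. Both Th2 percentiles were above both Th9 in 6 of 8 around Maf (75.0%), 5 of 20 in the Il10 cluster and 6 of 17 around Prdm1 (35.3%), against 22.9% of all such regions. The reverse order was found in 0 of 8, 4 of 20 and 4 of 17, against 17.3%.

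**Figure D4:**
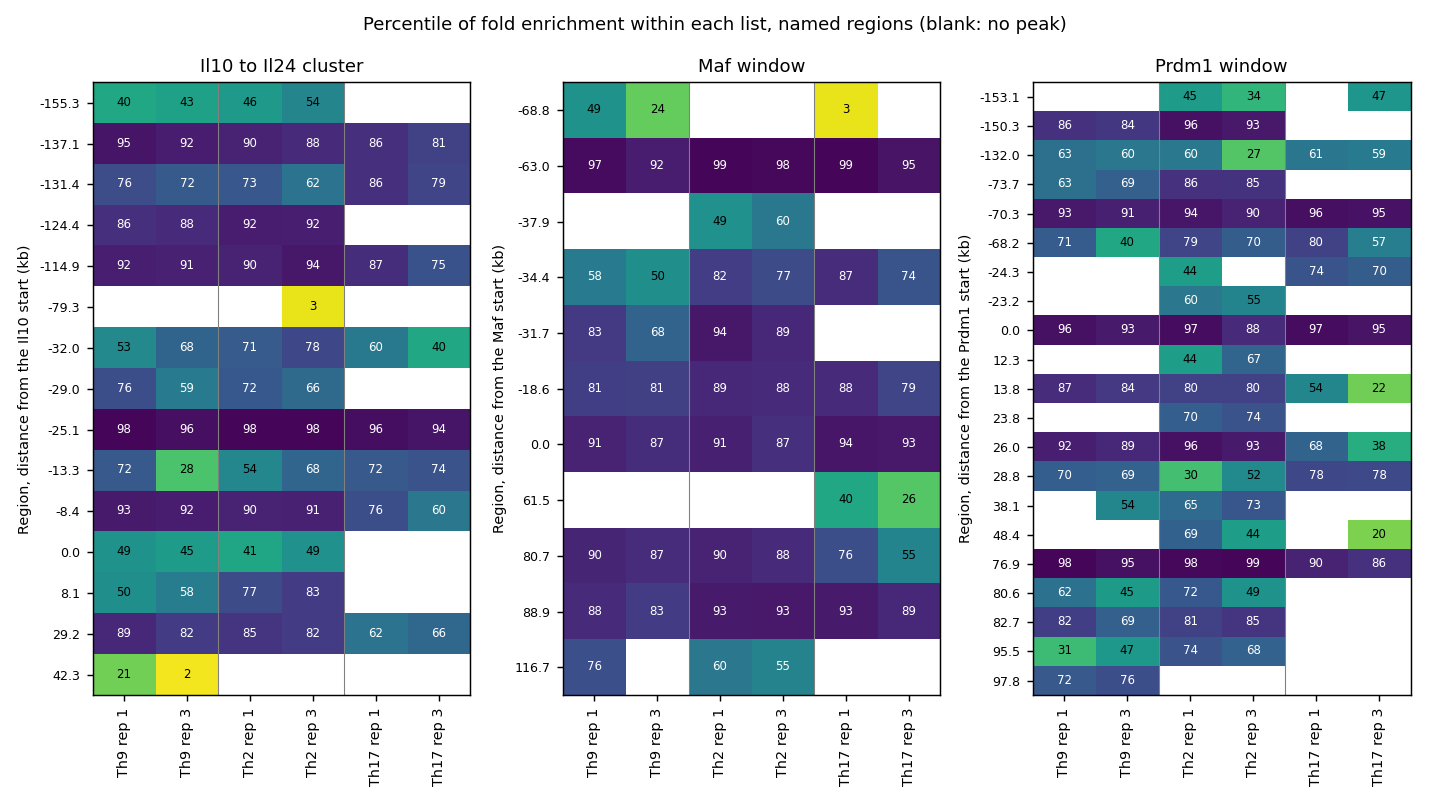
Percentile of the fold enrichment within each list (colour and number in each cell) for the 47 named regions (vertical axis, distance in kb from the Il10, Maf or Prdm1 start) in the 6 libraries (horizontal axis), where a blank cell means no peak. The blank Th17 columns mark the 11 regions called in all Th9 and Th2 libraries and no Th17 library, together with regions that some Th9 or Th2 libraries also lacked.

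The share of each window under a peak was compared between libraries as a measure that no single region decides. In the Il10 cluster it was 7.91% and 12.9% in Th9, 12.5% and 20.9% in Th2, against 6.56% and 5.07% in Th17. The subset values were 10.4% ± 3.55 in Th9, 16.7% ± 5.93 in Th2 and 5.82% ± 1.06 in Th17 (SD, n = 2 each). Both Th17 libraries lay below the other 4. The Th17 mean was lower by −7.74 percentage points, which a two-sided exact permutation test over the 15 arrangements of the libraries did not call (p = 0.200, adjusted over 6 tests 0.300). The Th2 mean was higher than that of the others by 8.59 points (exact permutation p = 0.133, adjusted 0.267).

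A part of the Il10 values rested on Th2 replicate 3. Its widest peak in the cluster spanned 7653 bp, against at most 4809 bp in the other libraries. Without 1 library at a time, the Th2 difference ranged from 4.39 to 12.8 points, and the lowest value was the one without Th2 replicate 3. Divided by the share of the genome under a peak in the same list, the cluster was 2.12 and 4.37 times as covered as the genome in Th9, 2.90 and 5.26 times in Th2, and 1.86 and 1.51 times in Th17.

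Around Maf the shares were 4.21% and 3.98% in Th9, 7.72% and 7.83% in Th2, against 4.24% and 4.87% in Th17. Both Th2 libraries lay above the other 4, by 3.45 points on average, at the smallest p that the exact permutation test allows here (p = 0.0667, adjusted 0.200). The Th17 difference was −1.38 points (exact permutation p = 0.467).

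Around Prdm1 they were 4.26% and 5.0% in Th9, 7.14% and 7.29% in Th2, against 4.48% and 4.85% in Th17. Both Th2 libraries again lay above the other 4, by 2.57 points (exact permutation p = 0.0667, adjusted 0.200), and the Th17 difference was −1.26 points (exact permutation p = 0.333). Th2 lists covered more of the whole genome (4.31% and 3.97%) than the others (2.96% to 3.73%). Relative to the genome, Th2 remained above the other libraries around Maf (1.79 and 1.97 against 1.13 to 1.45) but not around Prdm1 (1.66 and 1.83 against 1.14 to 1.69). None of the 6 tests passed an adjusted threshold of 0.05.

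**Figure D5:**
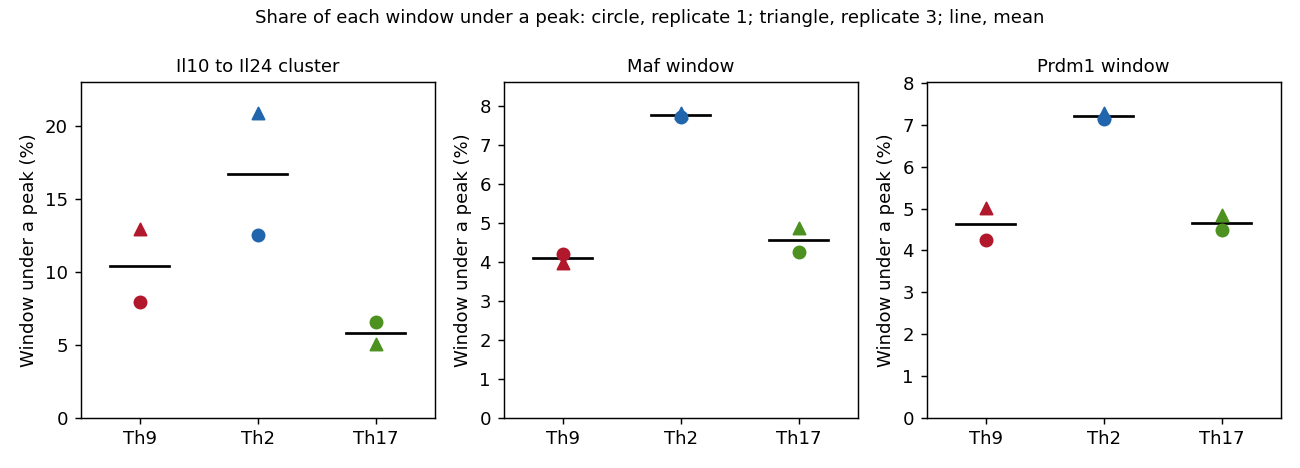
Share of each window under a peak in % (vertical axis, from 0) for each library by subset (horizontal axis), with circles for replicate 1, triangles for replicate 3 and lines for subset means (n = 2). In the Il10 cluster the 2 Th17 libraries (6.56% and 5.07%) are the lowest, and around Maf and Prdm1 the 2 Th2 libraries are the highest.

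Promoter calls of related genes are read against the 58.7% of protein-coding genes that all 6 libraries called. Of 20 genes known to regulate Il10 in T cells, 19 were called at the promoter in every library, including Batf and Irf4, which pair on DNA downstream of the antigen receptor, Ahr, the receptor for aryl hydrocarbons, and Nfil3. Stat4 was called in 5, with no peak in Th9 replicate 3. Stat3, which relays IL-6 and IL-10 signals, stood at percentiles 97.8 to 99.7.

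Of 8 other genes of the IL-10 family and its receptors, the receptor chains Il10ra, Il10rb, Il20ra and Ifnlr1 were called in all 6 libraries. Il22, Il20rb, Il22ra1 and Il22ra2 were called in none. The Il10ra promoter stood at 75.2 and 76.1 in Th9, 65.7 and 66.1 in Th2, against 62.1 and 43.8 in Th17. The subsets did not overlap in that order, and this gene was singled out after its values were seen.

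In the MAF and BACH family, 8 of 9 genes were called in all 6 libraries, Maf included, and Nrl, a photoreceptor factor, in none. In the PRDM family 7 of 8 were called in all 6, Prdm1 included. Prdm14, a germ cell factor, was called in both Th9 libraries (15.8 and 13) and in Th2 replicate 3 (37.7). Of 4 other genes whose bodies overlap the windows, the promoters of Mapkapk2 and Atg5 were called in all 6, and those of Pigr and Fcmr in none. The bodies of Mapkapk2, Atg5 and Pigr extend beyond the windows at their 5′ ends.

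The genes whose promoter percentiles over the 6 libraries were nearest to a member's, by Euclidean distance with 0 for no peak, were Syk (9.09), Myh11 (10.7) and Foxf1 (11.5) for Il10. For Il24 they were Scn2a (7.91), Jazf1 (9.08) and Xaf1 (10.3). Maf was nearest to AI429214 (2.36), Fgfrl1 (2.87) and Jmjd7 (2.97). Prdm1 was nearest to Brix1 and Rad1 (2.76 each, with the same values) and Lyrm2 (3.58), and Il19 to Olfr437 (0.147), Lyz1 (0.315) and Glt8d2 (0.434).

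The 38 regions outside the rule for named regions comprised 19 in the Il10 cluster, 10 around Maf and 9 around Prdm1. In the Il10 cluster 6 of the 19 were called in a single library, 5 of these in Th2 replicate 3, and 5 in all 6 libraries. Around Maf 5 of 10 were called in a single library and none in all 6, and around Prdm1 5 of 9 in a single library and 2 in all 6. Their percentiles ranged from 1.07 to 90.1.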

How the data were processed

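Peak lists of 6 ATAC-seq libraries were used. Per the labels and the study's methods, the authors trimmed reads with Trim Galore 0.4.3, aligned them to mm10 with Bowtie2, handled duplicates with Picard and called peaks per library with MACS2 2.1.0 in its broad mode for read pairs, without local background. The deposited lists gave, per peak, a display score (not used), the fold enrichment over background, a linear ratio, and −log10 values for its p-value and its q-value. A cutoff for the ATAC-seq calls was not given in the sources used here. In this mode 1 background serves the whole genome. Whole fragments are piled up and a Tn5 shift is not stated, which moves peak edges by a few bases.

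Peaks were joined, annotated with GENCODE M21 (basic) on GRCm38 and ranked within each list with Python 3.11.15, numpy 2.4.6, pandas 2.3.3 and scipy 1.17.1, and 0 peaks lay past a chromosome end. Where a library had several peaks in a region, the highest percentile was used. No pair of lists shared more than 0.0778% of peaks with identical ends.

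Named regions were those over member promoters, those called in both libraries of 1 subset and none of another, the 5 with the widest subset spread and the 3 strongest per window among regions called in all 6. The members and lists were chosen with earlier results of these data known. The result for 1 gene of the marker lists is not reported here. Scripts were tested on simulated data. P-values measure only the spread between these libraries, which may be technical. The alternatives were stricter thresholds, equal list lengths, other flanks, overlaps, promoters and bins, 1 library left out, coverage relative to the genome, and a replicate block.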

Additional observations from a re-analysis of the deposited data

How the results depend on the processing

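None of the 84 alternative values of the share of a window under a peak changed direction. Those with the replicate block repeat the main differences and could not have changed. Without 1 library at a time, the Th17 difference ranged from −9.63 to −5.30 points in the Il10 cluster, −2.03 to −0.747 around Maf and −1.81 to −0.802 around Prdm1, and the Th2 difference from 4.39 to 12.8, 3.33 to 3.63 and 2.44 to 2.69.

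Counts are given in the order Il10 cluster, Maf and Prdm1. The share over all regions was not computed under these alternatives. Regions called in all 6 libraries (13, 6 and 10) ranged from 13 to 15, 6 to 7 and 10 to 12 without 1 library. They were 1, 3 and 3 with a fold of at least 4, 2, 3 and 3 among the 20000 strongest peaks, 5, 2 and 3 where a peak had to cover 50% of the region, and 20, 13 and 16 in bins of 1 kb. Around Prdm1 there were 4 with −log10 q of at least 5, and around Maf 3 with the flank at 0.5 times its length and 10 at 2 times.

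Regions of all Th9 and Th2 libraries and no Th17 library (5, 1 and 5) ranged from 5 to 7, 1 to 2 and 5 to 7 without 1 library. They were 2 and 3 (Il10, Prdm1) with −log10 q of at least 5, 2 and 1 among the 20000 strongest peaks, 3, 0 and 3 with 50% of the region covered, 9 and 3 (Il10, Maf) in bins. There were 2 around Prdm1 with a fold of at least 4 and 1 with the flank at 0.5 times its length, and around Maf 2 with the flank at 2 times its length and 3 with a call in either library.

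Regions of a single subset (1, 2 and 4) ranged from 1 to 7, 2 to 5 and 4 to 7 without 1 library. The highest were without Th2 replicate 1 (7 and 5) and without Th2 replicate 3 (7 around Prdm1). They were 0, 1 and 1 with a fold of at least 4, 2, 1 and 1 among the 20000 strongest, 3, 5 and 9 with 50% covered, 5, 4 and 7 in bins, and 8, 7 and 9 with a call in either library. There were 0 around Maf with −log10 q of at least 5, 0 in the Il10 cluster with lists of equal length or the flank at 0.5 times its length, and 5 and 4 (Il10, Maf) at 2 times. The cause of these changes was not tested.

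The sources used here do not say whether the replicate numbers pair libraries across subsets. Deviations of percentiles from the subset mean correlated at 0.168 (Th9 and Th2), 0.0313 (Th9 and Th17) and −0.00984 (Th2 and Th17) over 50493 regions. With 2 libraries per subset these values cannot decide whether the libraries were paired. A replicate block leaves the differences at −7.74, −1.38 and −1.26 points for Th17 and 8.59, 3.45 and 2.57 for Th2 by construction. The smallest exact permutation p was then 0.111. Within-list percentiles remove list length but not depth, and without read counts a missing Th17 peak cannot be told apart from a shallow library.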
